A study of Mus musculus with 11 samples.

Results

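The genes *Tcf7*, *Lef1*, *Tox*, *Tox2* and *Sox4* encode transcription factors with an HMG box, and they were chosen by name, as 5 of the 21951 protein-coding genes of the mouse annotation. Accessible chromatin at these genes was followed in 9 ATAC-seq libraries, in which a transposase cuts and tags open DNA and a peak caller lists the places where cuts pile up. All peaks that overlapped the gene body or the 20 kb on either side of it were taken, which gave 272 of the 298164 peaks of the series. Where peaks of different libraries overlapped by 1 bp or more they were joined into 1 interval, and 64 of the 71400 intervals so made lay in the 5 windows. An interval was called open in a library when that library had a peak in it.

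The study asked where chromatin is open in lymphocytes that make PLZF, the product of *Zbtb16*, and in related cells that do not. From the thymus came NKT cells (2 libraries), innate-like T cells that see lipid on CD1d and were enriched with a CD1d tetramer, and CD4 single-positive thymocytes (CD4SP, 2 libraries), which are conventional T cells. From the bone marrow came innate lymphoid cell precursors (ILCP, 2 libraries) and common lymphoid progenitors (CLP, 3 libraries). All were from C57BL/6 mice, between 4 and 8 weeks old by the study's methods, and the replicates are described there as biological. ILCP were sorted as lineage-negative cells with IL-7Rα, α4β7 and eGFP, and the GFP line that the methods list is a *Zbtb16* reporter that also carries Cre. CLP were sorted by IL-7Rα, Flt3 and intermediate cKit and Sca-1. NKT were compared with CD4SP and ILCP with CLP, each pair within its tissue. Tissue and cell type cannot be told apart between the pairs, and in a bulk library a place open in fewer cells cannot be told apart from one that is less open in every cell.

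HMG-box proteins bind in the minor groove of DNA and bend it. TCF1, the product of *Tcf7*, and LEF1 share a binding core, are partners of β-catenin and of Groucho-type corepressors, and act from the first steps of T cell commitment in the thymus. TOX is needed for the CD4 lineage and for early innate lymphoid precursors, TOX2 is its close relative, and SOX4 is an HMG-box factor of early lymphoid and other progenitors.

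The lists held between 19343 and 41535 peaks per library. CLP replicate 1 stood apart with 19343, against 41535 and 40136 in the other CLP libraries, and 99.1% and 98.8% of its open intervals were also open in those libraries, so the main counts and calls that rest on CLP are also given without it. At least 1 peak lay within 5 kb of all 5 T cell markers in each thymic library, of 3 to 4 in CLP and of 2 to 3 in ILCP. Summed peaks around CD4SP and NKT markers were highest in their own type, 19 to 21 in CD4SP and 21 in each NKT library. In NKT, however, *Klrb1c* had no peak and *Tbx21* had 0 and 1. Around ILCP markers the sums were 34 to 42 in NKT against 26 to 32 in ILCP. For CLP markers they overlapped, with 14 to 19 in CLP and 16 to 17 in CD4SP. Around 5 B cell markers the summed peaks ranged from 6 to 20 in CLP, from 9 to 10 in ILCP and from 7 to 9 in the thymic libraries, and the part of B-lineage cells in the CLP values was not tested. The peak caller's scores were used only as places within a library. A peak described as in the upper 10.2% was the last of that share of its library's peaks when these were ordered from the highest score down, with tied peaks given the first place of the tie. The methods give a range of 30000000 to 50000000 reads but not the number for each library and the absence of a peak is not evidence of closed chromatin.

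Sequences that the comparisons turn on are shown first. Each is the central 200 bp of a merged interval on the plus strand of mm10, named by gene and by the distance of the interval's centre from the annotated start, counted along the gene. Capitals mark matches on either strand to 4 words, of which CTTTGA is the core bound by TCF and LEF factors. The word TGTGGT is that of the Runx factors. An E-box was searched for as CAGCTG, the form bound by E proteins. For GATA factors the word searched for was AGATAA. *Tcf7* +14.8 kb (chr11:52268086-52268285) and *Tox* +316.3 kb (chr4:6675123-6675322) lie in intervals that were open in thymic cells and ILCP and in no CLP library. Of the 6 libraries with a peak in the *Tcf7* interval, 4 had one over all of the printed stretch, and the peak of ILCP replicate 1 began at 52268260, past the marked E-box. *Lef1* +49.3 kb (chr3:131159692-131159891) was open in CD4SP alone, *Tox2* +30.7 kb (chr2:163233698-163233897) in NKT alone, and *Tox2* +95.9 kb (chr2:163298946-163299145) in NKT and ILCP alone.
Tcf7 +14.8 kb: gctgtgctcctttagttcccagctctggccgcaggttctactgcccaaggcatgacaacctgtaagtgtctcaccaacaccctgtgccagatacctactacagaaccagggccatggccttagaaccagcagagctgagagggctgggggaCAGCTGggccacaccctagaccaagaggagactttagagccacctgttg
Lef1 +49.3 kb: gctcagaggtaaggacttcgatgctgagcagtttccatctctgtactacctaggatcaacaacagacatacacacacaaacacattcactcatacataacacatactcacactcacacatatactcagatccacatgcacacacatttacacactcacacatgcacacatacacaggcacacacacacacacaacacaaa
Tox +316.3 kb: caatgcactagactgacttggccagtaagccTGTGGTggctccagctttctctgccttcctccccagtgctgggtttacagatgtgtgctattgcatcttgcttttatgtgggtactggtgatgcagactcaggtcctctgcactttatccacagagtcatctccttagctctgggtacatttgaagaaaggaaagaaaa
Tox2 +30.7 kb: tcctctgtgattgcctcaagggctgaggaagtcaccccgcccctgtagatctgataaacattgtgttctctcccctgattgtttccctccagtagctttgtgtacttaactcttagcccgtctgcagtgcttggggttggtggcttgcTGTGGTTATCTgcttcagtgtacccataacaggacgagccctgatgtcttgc
Tox2 +95.9 kb: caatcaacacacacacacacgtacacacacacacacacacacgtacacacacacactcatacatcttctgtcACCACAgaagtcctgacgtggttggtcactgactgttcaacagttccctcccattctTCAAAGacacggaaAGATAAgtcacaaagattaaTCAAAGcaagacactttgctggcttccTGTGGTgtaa
In the *Tox2* +95.9 kb sequence stand 2 TCF/LEF cores, 2 Runx matches and 1 GATA match. The *Tox2* +30.7 kb sequence holds a Runx match at bases 149 to 154 that overlaps a GATA match at 154 to 159 by 1 base, and *Tox* +316.3 kb holds 1 Runx match. *Tcf7* +14.8 kb holds an E-box and none of the other words. The *Lef1* +49.3 kb sequence, rich in CA repeats, holds none of the 4 words in these 200 bp.

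By mean, peaks were most numerous in CD4SP at *Tcf7*, *Lef1* and *Tox*, in NKT at *Tox2*, and in ILCP at *Sox4*. At *Tcf7* the CD4SP libraries held 7 and 10 peaks, NKT 4 and 6, CLP 0, 2 and 2, and ILCP 1 and 1. *Lef1* had 16 and 19 peaks in CD4SP, 12 and 11 in NKT, 3, 5 and 6 in CLP, and 5 and 4 in ILCP. *Tox* had 16 and 14 in CD4SP, 10 and 11 in NKT, 2, 5 and 6 in CLP, and 3 and 3 in ILCP. For these 3 genes the 4 cell types came in the same order by mean, and every CD4SP library lay above every NKT library and every NKT library above the marrow libraries, while CLP and ILCP overlapped. *Tox2* had 3 and 5 peaks in CD4SP, 7 and 7 in NKT, 2, 4 and 4 in CLP, and 4 and 4 in ILCP, so NKT lay above all other libraries and the rest overlapped. *Sox4* had 5 and 3 in CD4SP, 5 and 5 in NKT, 4, 6 and 7 in CLP, and 6 and 7 in ILCP, and each cell type overlapped its neighbour in the order of means.

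**Figure D1:**
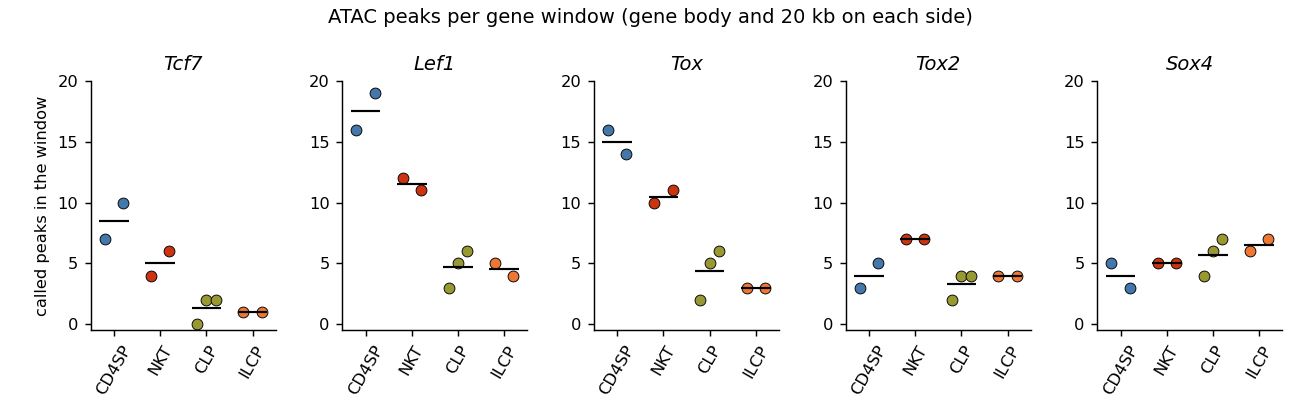
Number of called peaks (vertical axis) in the window of each gene by cell type, with 1 point per library and a line at the mean. CD4SP points lie above NKT points for Tcf7, Lef1 and Tox, and the NKT points, both at 7, lie above the CD4SP points, at 3 and 5, for Tox2.

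The mean was 8.5 ± 2.12 peaks in CD4SP and 5 ± 1.41 in NKT at *Tcf7* (SD, n = 2 and 2), 17.5 ± 2.12 and 11.5 ± 0.707 at *Lef1* and 15 ± 1.41 and 10.5 ± 0.707 at *Tox*, while at *Tox2* it was 4 ± 1.41 in CD4SP and 7 ± 0 in NKT. When the lists were cut from the top to the same length, the difference of NKT minus CD4SP was -1 peak at *Tcf7*, -3 at *Lef1*, -1.5 at *Tox* and 0 at *Tox2*. With the higher-scoring part of each list these were -0.5, -3, -1.5 and 0. With 2 libraries against 2, the exact permutation test cannot go below p = 0.333, and each of these 4 comparisons gave that value (two-sided). More peaks in every CD4SP than in any NKT library were found at 3 of the 5 genes, and at 6.6% of the 16528 genes with a thymic peak, whose highest thymic library held a median of 3 peaks. More peaks in every NKT library were found at 1 of the 5, and at 9.47% of those genes. At *Sox4* the difference was 1 peak, within the spread of the libraries (exact permutation p = 1).

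In the marrow no gene separated ILCP from CLP by its number of peaks. ILCP held 0.333 fewer peaks than CLP at *Tcf7*, 0.167 fewer at *Lef1* and 1.33 fewer at *Tox*, and 0.667 more at *Tox2* and 0.833 more at *Sox4* (exact permutation p from 0.4 to 1, smallest possible 0.1). Under some alternatives the direction at *Tcf7*, *Lef1* and *Tox* changed. With equal numbers of peaks, for example, ILCP held 0.5 more at *Tcf7* and 1 more at *Tox*. Over all 17119 genes with a marrow peak, 4.69% had more peaks in every ILCP library and 10% more in every CLP library, against 0 of the 5 genes in either direction. Without CLP replicate 1, CLP lay above ILCP at *Tcf7*, with 2 peaks each against 1 and 1, and at *Tox*, with 5 and 6 against 3 and 3. These are 2 of the 5 genes, against 48% of all genes with a peak in the remaining libraries, while 0 of the 5 had more in ILCP, against 5.26%. At *Tcf7*, 1 of the 2 peaks of each CLP library is the *Skp1a* start peak, which reaches 84 and 130 bp into the window. The differences were then 1 peak fewer in ILCP at *Tcf7* and *Lef1*, 2.5 fewer at *Tox* and 0 at *Tox2* and *Sox4* (exact permutation p from 0.333, the smallest possible, to 1). When the comparisons of both tissues were added, with labels permuted within each tissue, the exact permutation p was lowest for *Tox*, at 0.0667 (smallest possible 0.0167, 5 genes compared), with a sum of -5.83 peaks. It was 0.0333 when the 20 kb on either side were left out, 0.0556 without CLP replicate 1 (then the smallest possible), 0.85 with equal numbers of peaks (sum -0.5) and 0.533 with the higher-scoring part (sum -0.667). For *Tcf7* it was 0.183, again the smallest possible, 0.0556, without CLP replicate 1, and 1 both with equal numbers of peaks (sum -0.5) and with the higher-scoring part (sum 0). For *Tox2* that p was 0.167 on peak numbers, 0.0167 when peaks were counted per 10,000 peaks of the library, 0.4 with equal numbers and 1 with the higher-scoring part.

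**Figure D2:**
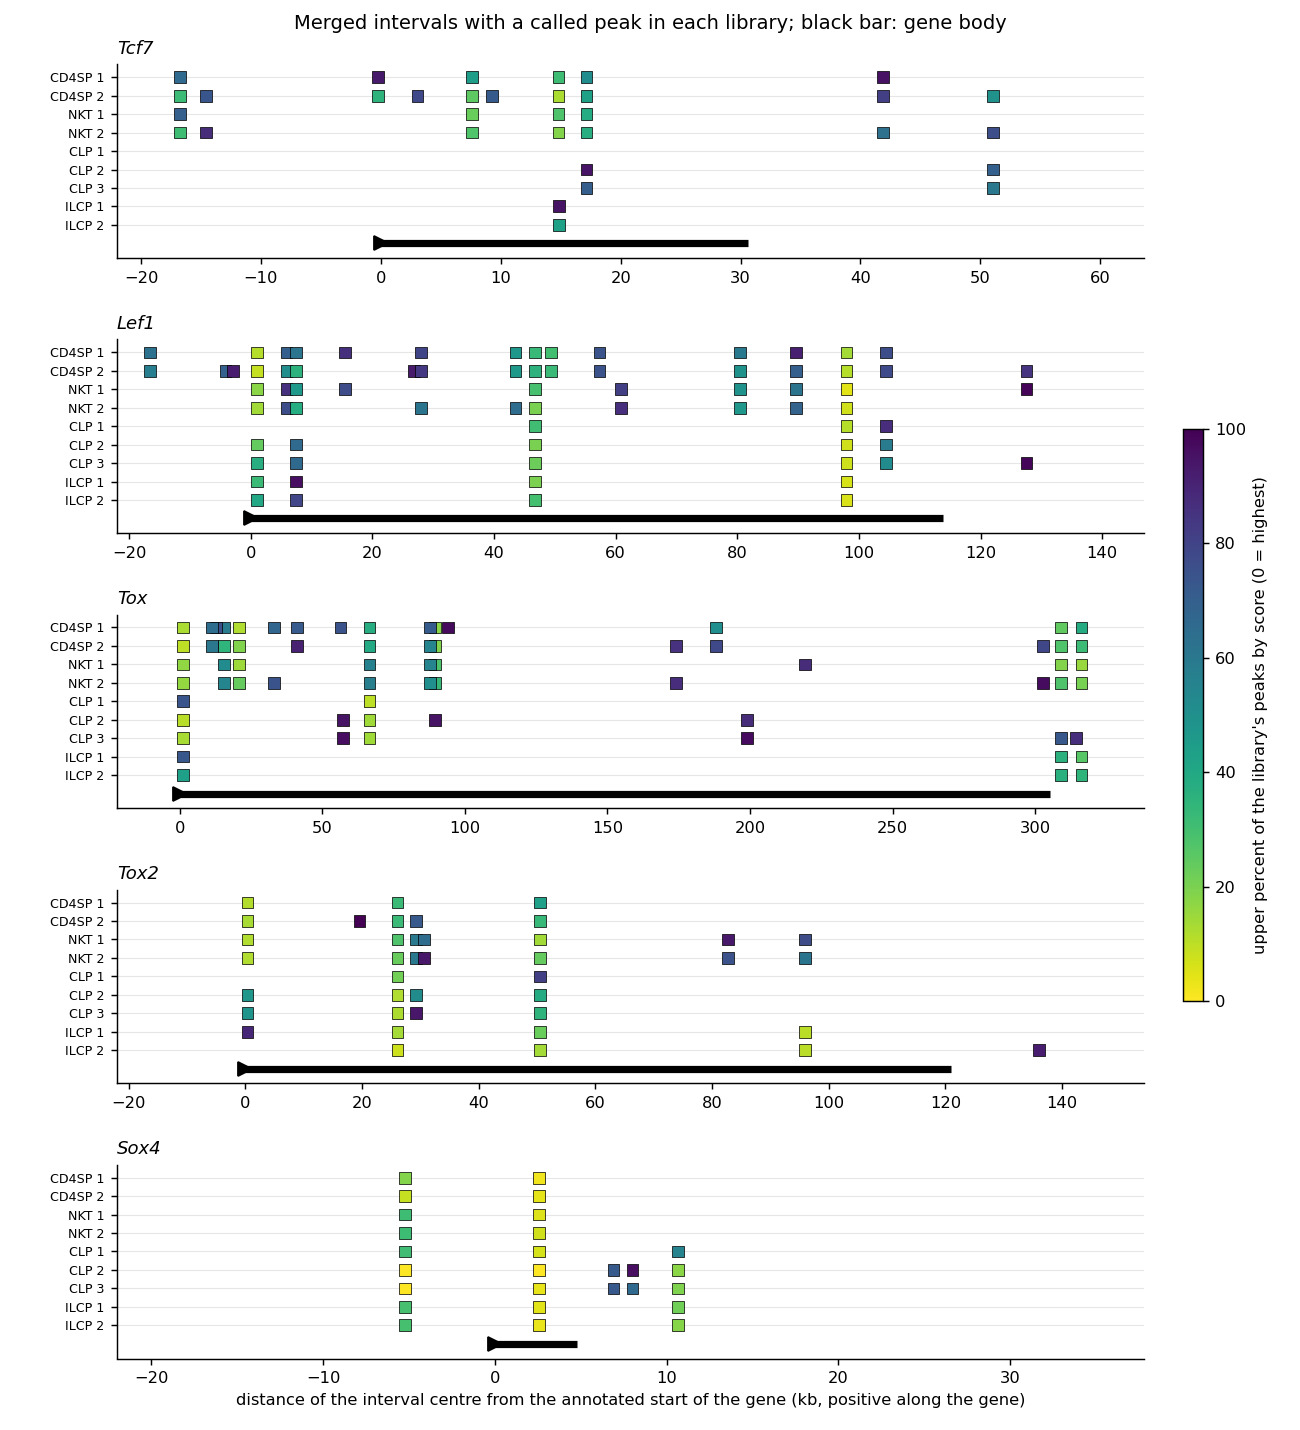
Merged intervals with a peak in each of the 9 libraries, placed by distance of their centre from the start of the gene (horizontal axis, kb) and coloured by the upper percent of the library's peaks in which the highest peak fell, with 0 the highest score. The black bar is the gene body. Columns of squares through all rows mark intervals open in every library, such as Lef1 +98.0 kb and Sox4 +2.6 kb, and squares in the upper 4 rows alone mark intervals open in the thymus alone.

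*Tcf7* (ENSMUSG00000000782.15, chromosome 11, 52252371 to 52283014, minus strand) had 10 intervals, of which 7 were open in thymic libraries alone and none in all 9 libraries. Its annotated start lay in an interval open in both CD4SP libraries and in no other (-0.3 kb, 52282102 to 52284445), with a peak in the upper 93.2% of CD4SP replicate 1 and the upper 35.5% of replicate 2. The first of these peaks was thus close to the lowest score that was listed, and the interval also overlaps the antisense gene A630014C17Rik. That peak of CD4SP replicate 1 (52283095 to 52283689) lay upstream of the annotated start, so CD4SP replicate 2 alone had a peak over the start. The 250 bases before this start in RefSeq hold 37 CpG, against a median of 6 over 32851 RefSeq promoters, and a GC share of 76% against 52.4%. The interval at +14.8 kb in intron 2 (52267086 to 52269284) was open in all 4 thymic libraries and both ILCP libraries. Its peaks lay in the upper 31% and 12.7% in CD4SP, 27.9% and 18.7% in NKT, and 95.1% and 42.7% in ILCP. It was the sole peak of each ILCP library in the window, its place was low in ILCP replicate 1, and the gene Gm26551 overlaps it. In the same intron, the interval at +17.1 kb was open in the thymic libraries and in CLP replicates 2 and 3, and that at +7.6 kb in the 4 thymic libraries alone. The interval at +51.0 kb lies over the start of *Skp1a*, the gene next to *Tcf7*.

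*Lef1* (ENSMUSG00000027985.14, chromosome 3, 131110471 to 131224356, plus strand) had 19 intervals. At +98.0 kb in intron 11 (131207472 to 131209418) all 9 libraries had a peak, in the upper 4.48% to 13.4% of each, and by mean place it ranked highest of the window. A second interval open in all 9 lay at +46.7 kb (131155906 to 131158414, upper 19.6% to 35.7%). It holds a RefSeq start inside the gene at 131156294, over which the thymic libraries alone had a peak. In every library but NKT replicate 2 the highest peak of the interval began past that start. The interval over the upstream starts (+1.0 kb, 4369 bp wide) was open in every library but CLP replicate 1. There the peaks lay in the upper 11.3% and 8.86% in CD4SP, 17.3% and 13.8% in NKT, 24% and 37.2% in CLP replicates 2 and 3, and 32.2% and 39.9% in ILCP. The thymic libraries thus stood above the marrow libraries in this interval, with no overlap. These places are those of each library's highest peak, which began past the annotated start at 131110471. Over that start itself, a peak was listed in both CD4SP libraries and in NKT replicate 2 alone. Open in thymic libraries alone were 13 of the 19 intervals. Open in both CD4SP and in neither NKT library were -16.6, +49.3, +57.4 and +104.5 kb, the last also in all 3 CLP libraries and in no ILCP library. At +49.3 kb, next to the +46.7 kb interval, the peaks lay in the upper 30.2% and 32.2% of CD4SP. The 1 interval open in NKT and not in CD4SP, at +60.9 kb, had peaks in the upper 81.6% and 86.7%, near the bottom of the lists.

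*Tox* (ENSMUSG00000041272.11, chromosome 4, 6686353 to 6991557, minus strand) had 21 intervals, 13 of them open in the thymus alone. The interval over its start (+1.2 kb, 6988739 to 6991991) was open in all 9 libraries. In each but ILCP replicate 1, whose peak ended at 6991527, a peak lay over the start itself. The peaks there lay in the upper 12.8% and 9.9% in CD4SP, 16.7% and 16.1% in NKT, 74.1%, 10.6% and 13.2% in CLP, and 72.8% and 43.4% in ILCP. ILCP stood below the thymic cells and below CLP replicates 2 and 3, while CLP replicate 1 lay with ILCP. In intron 1 the interval at +66.6 kb was open in all CLP and thymic libraries and in neither ILCP library. It ranked highest in CLP, in the upper 9.95%, 14.2% and 14.4%, against 37.8% and 39.8% in CD4SP and 56.5% and 57.4% in NKT, and the 3 cell types did not overlap. Past the 3' end of the gene, at +316.3 kb (6674639 to 6675806), the order was another. All thymic libraries and both ILCP libraries were open (upper 38.9% and 31.8% in CD4SP, 15.3% and 20.6% in NKT, 26.4% and 35.1% in ILCP) and no CLP library was. Beside it, +309.1 kb was open in the same 6 libraries and in CLP replicate 3. The intervals at +20.9, +15.5 and +87.7 kb, all in intron 1, were open in the 4 thymic libraries and in none from marrow, and at +20.9 kb the peaks lay in the upper 11.9% to 23.7%. CD4SP alone among the thymic cells had +188.1, +41.1 and +11.2 kb.

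*Tox2* (ENSMUSG00000074607.11, chromosome 2, 163203125 to 163324170, plus strand) had 9 intervals. The upstream start (+0.4 kb) was open in the 4 thymic libraries, in the upper 11.6% to 13.2%, in CLP replicates 2 and 3 (47.2% and 47.8%) and in ILCP replicate 1 (89.3%), so the thymic libraries stood well above those from marrow. No library had a peak over the RefSeq start inside the gene at 163225454. Intervals at +26.1 kb (intron 1) and +50.5 kb (intron 2) were open in all 9 libraries. At +26.1 kb ILCP lay in the upper 13.6% and 7.55%, CLP in 21.2%, 11.9% and 12.4%, NKT in 27.9% and 23.1% and CD4SP in 32.3% in both. At +50.5 kb (163252806 to 163254376) NKT lay in the upper 13.7% and 23.8% and ILCP in 22.9% and 13.5%, while CD4SP lay in 43.4% and 33% and CLP in 81.3%, 38.9% and 35.4%. NKT and ILCP thus stood above CD4SP and CLP there with no overlap. Intron 3 holds the interval at +95.9 kb (163298403 to 163299688), which both NKT and both ILCP libraries opened and no CD4SP or CLP library did. It was high in ILCP, in the upper 10.2% and 10.3%, and low in NKT, in 77.2% and 61.5%. Of the 64 intervals this was the 1 with that combination, which 432 of the 71400 intervals of the genome showed. At +30.7 and +82.7 kb both NKT libraries and no other had a peak, at places between 64.6% and 94.1%.

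*Sox4* (ENSMUSG00000076431.4, chromosome 13, 28948919 to 28953713, minus strand), a short gene, had 5 intervals. The interval over it (+2.6 kb, 28947792 to 28954495) was 6704 bp wide and open in all 9 libraries, in the upper 0.279% to 7.08%, the highest mean place among the 64. Upstream, at -5.2 kb (28957418 to 28960475), all libraries were open as well. CLP replicates 2 and 3 lay in the upper 0.0385% and 0.259% there, CLP replicate 1 in 30.5%, ILCP in 29.5% and 29.4%, NKT in 30.9% and 31.5% and CD4SP in 18.6% and 8.78%, so CLP replicates 2 and 3 stood above the rest and CLP replicate 1 did not. The peak of CLP replicate 3 there and that of CLP replicate 2 at +2.6 kb had the score 3100, which 2.87% and 3.05% of the peaks of these libraries shared, and at the last place of the tie they would lie in the upper 3.13% and 3.32%. Downstream, +10.7 kb (28942274 to 28943804) was open in all 5 marrow libraries and in no thymic library and holds the start of the lincRNA gene Gm26735 (28943048, plus strand), with peaks in the upper 54.7%, 17.4% and 19.2% in CLP and 21.7% and 18.2% in ILCP, and +8.0 and +6.9 kb were open in CLP replicates 2 and 3 alone. By base pairs instead of peak number the order changed, since peaks covered 12585 and 12651 bp of the window in CLP replicates 2 and 3, 4649 in CLP replicate 1, 7864 and 8057 in ILCP, 6077 and 6600 in CD4SP and 4755 and 6089 in NKT.

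**Figure D3:**
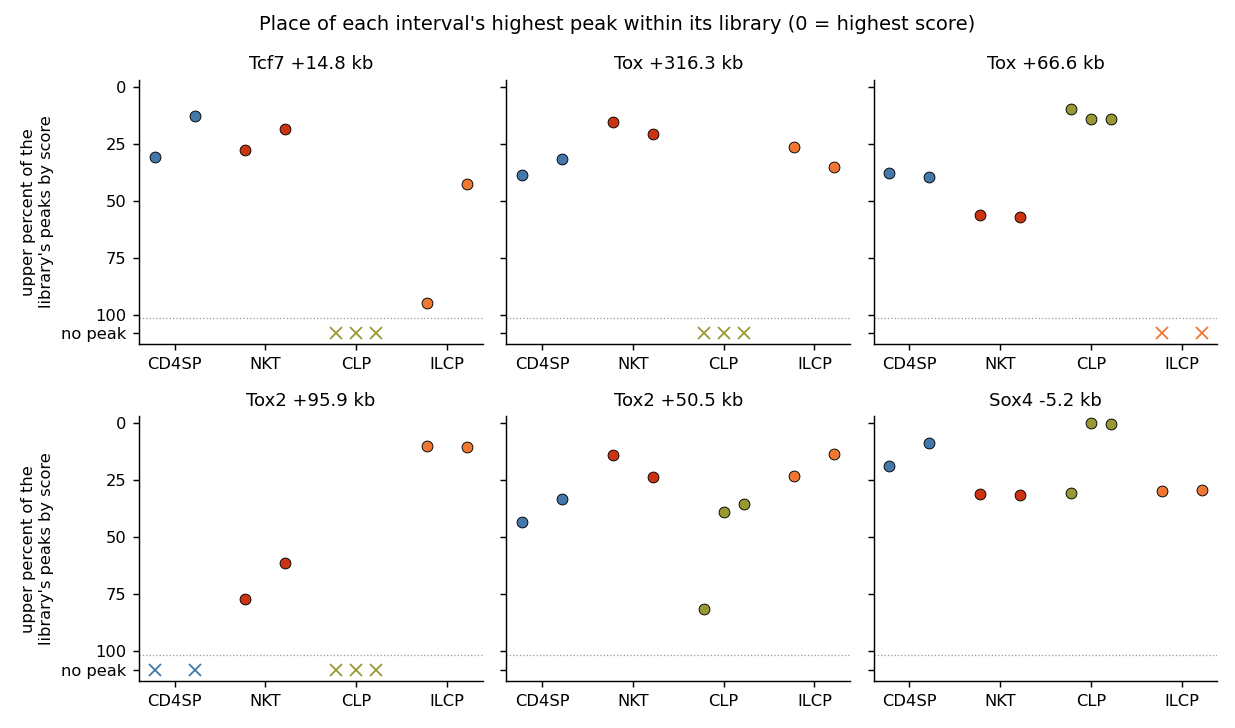
Upper percent of each library's peaks by score (vertical axis, 0 at the top for the highest score) in which the highest peak of 6 intervals fell, with 1 point per library and a cross where no peak was called. Tox2 +95.9 kb has points in NKT and ILCP alone, Tox +66.6 kb lacks ILCP points, and Tcf7 +14.8 kb and Tox +316.3 kb lack CLP points.

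Intervals were next counted as specific when open in every library of a cell type and in none of the type it was compared with. Against NKT, CD4SP had 8 specific intervals among the 57 open in either (1 at *Tcf7*, 4 at *Lef1*, 3 at *Tox*), against 5.21% of such intervals over the genome. NKT had 4 of 57 (1 at *Lef1*, 3 at *Tox2*), which is near the genome's 6.48%. ILCP had 3 of 28 (1 each at *Tcf7*, *Tox* and *Tox2*), against 8.67%, and CLP had 2 of 28 (*Lef1* and *Tox*), against 8.18%, both again near the background. When 2 of the 3 CLP libraries sufficed, a rule chosen after seeing the data, CLP had 9 of 28 against 30.7% of the genome, the 7 added being *Tcf7* +51.0 and +17.1, *Tox* +199.1 and +57.3, *Tox2* +29.2 and *Sox4* +8.0 and +6.9 kb. Leaving out CLP replicate 1 gave the same count of 9, and leaving out CD4SP replicate 1 raised the CD4SP count from 8 to 14. With the same number of highest-scoring peaks from each library, CD4SP had 3 and NKT 0.

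By gene, 3 of the 5 had at least 1 CD4SP-specific interval, against 8.36% of all protein-coding genes, and 2 had an NKT-specific one, against 11.5%. An ILCP-specific interval was present at 3 of the 5, against 13.8%, and a CLP-specific one at 2, against 16.4%. Without CLP replicate 1 the CLP count was 5 of 5, against 44.8% of all genes. The ILCP-specific and the CD4SP-specific interval of *Tcf7* were each lost with equal numbers of peaks, with the higher-scoring part of each list and when peaks had to cover 50% of the interval. The ILCP-specific one of *Tox* was lost with that cover, which left 1 of the 3, and with windows of 5 kb or no extension. The 4 CD4SP-specific intervals of *Lef1* (7 without CD4SP replicate 1, and 2 with equal numbers of peaks or the higher-scoring part) were exceeded at 17 of 21951 genes and matched or exceeded at 41, *Lef1* included, and the 3 NKT-specific ones of *Tox2* at 34 and 122, *Tox2* included. Longer windows hold more intervals, and these shares were not corrected for length.

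The windows also differed in which tissue their intervals were open in. In the 5 windows 36 of 64 intervals (56.3%) were open in thymic libraries alone, against 27% over the genome, 7 in marrow libraries alone, against 33.6%, and 7 in all 9 libraries, against 13.3%. *Tcf7*, *Lef1* and *Tox* made up 33 of the 36, with 7, 13 and 13, *Tox2* had 3 and *Sox4* 0. Of the 7 open in marrow alone, *Sox4* had 3 of its 5 intervals, *Tox* 3 of 21, and *Tox2* 1 of 9. Those of *Tox* were each open in 1 or 2 CLP libraries and in no ILCP library, and the *Tox2* interval in 1 ILCP library.

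**Figure D4:**
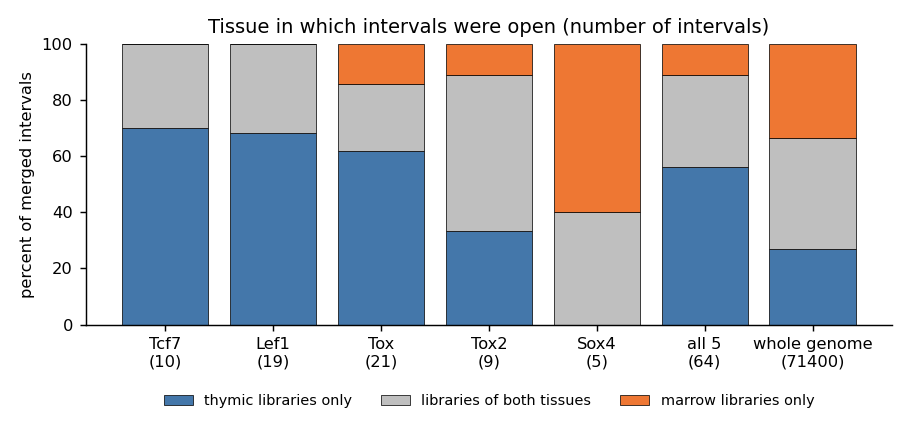
Percent of merged intervals (vertical axis) open in thymic libraries alone, in libraries of both tissues and in marrow libraries alone, for each gene, the 5 genes together and the whole genome, with the number of intervals in brackets. The thymic part is 70% at Tcf7 and 0% at Sox4, and 27% over the genome.

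For intervals open in every compared library, score ranks were compared with limma, as the percent of these shared intervals with a lower score in the same library. Between NKT and CD4SP 24221 intervals were tested, 24 of them in the 5 windows, and none was called at an adjusted p of 0.05 or less in either direction (0% and 0% of all intervals; 3095 of all and 5 of the 24 had an unadjusted p under 0.05). The 5 were *Tox2* +50.5 kb and *Tox* +316.3 kb, with mean ranks 25.7 ± 8.24 (SE) and 23.5 ± 6.19 points higher in NKT, and *Sox4* -5.2, *Tox* +66.6 and *Tox* +89.6 kb, with mean ranks 26.1 ± 6.63, 20.3 ± 6.16 and 18.2 ± 6.49 points higher in CD4SP, and their limma adjusted p lay between 0.274 and 0.382.

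Between ILCP and CLP 12171 intervals were tested, and 845 (6.94%) had a higher rank in ILCP and 792 (6.51%) in CLP. Counted by place among all peaks of a library instead, the split was 29 and 210. Among the 8 intervals of the 5 windows, 1 was called, *Tox2* +50.5 kb. Its ranks were 59.3 and 75 in ILCP and 10.1, 15.3 and 20.1 in CLP, a difference in means of 52 ± 6.42 points (SE, limma adjusted p = 0.0103). Over the alternatives its adjusted p ranged from 0.00869 to 0.392 and the ILCP rank was higher in each. The call was lost without ILCP replicate 2 (adjusted p = 0.0559) and without CLP replicate 2 (0.054), and with places among all peaks (0.392). *Tox2* +26.1 kb (15.2 ± 5.24 points higher in ILCP, limma adjusted p = 0.124) and *Sox4* +10.7 kb (22.3 ± 7.01 points, 0.102) did not pass. *Sox4* -5.2 kb was 33.1 ± 13.8 points higher in CLP (limma adjusted p = 0.186), with ranks of 56.4, 99.9 and 94.5 in CLP and 49.8 and 51.1 in ILCP, and was called without CLP replicate 1 (adjusted p = 0.00787).

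**Figure D5:**
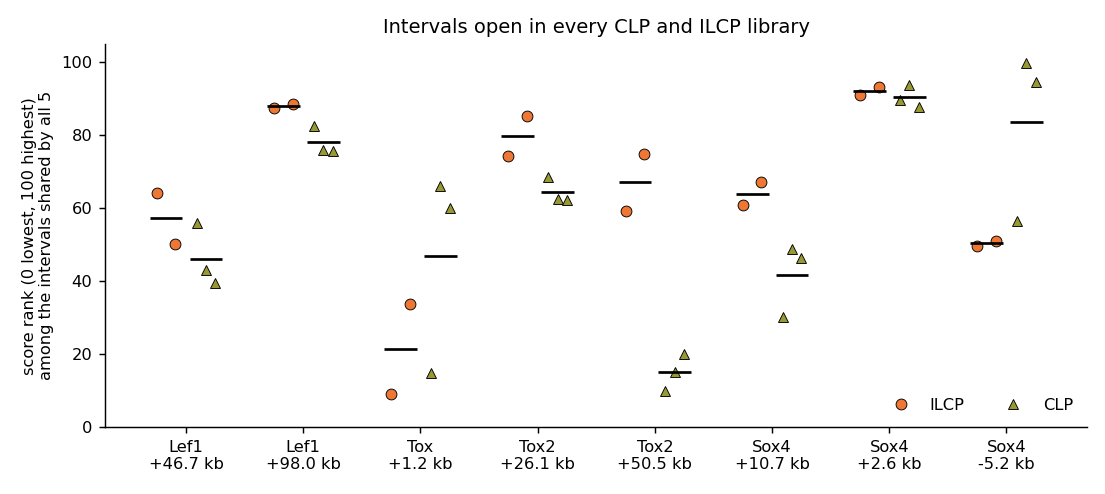
Score rank (vertical axis, 0 lowest and 100 highest) among the 12171 intervals open in all 5 marrow libraries, for the 8 that lie in the windows, with 1 point per library and a line at the mean. At Tox2 +50.5 kb the ILCP points, 59.3 and 75, lie above the CLP points, 10.1 to 20.1.

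Motif words in the central 200 bp of the 64 intervals, counted on both strands, occurred about as often as in all 71400 intervals of the genome. The TCF/LEF core CTTTGA was in 13 of 64 (20.3%, against 16.6% of all), TGTGGT in 16 (25% against 25.1%), CAGCTG in 9 (14.1% against 14.2%) and AGATAA in 6 (9.38% against 9.73%). By gene, TGTGGT was in 9 of the 21 *Tox* intervals, in 4 of the 9 at *Tox2*, in 2 of the 19 at *Lef1* and in 1 of the 10 at *Tcf7*. CTTTGA was in 5 at *Lef1*, 4 at *Tox*, 3 at *Tox2* and 1 at *Tcf7*, and none of the 4 words was in the 5 at *Sox4*. These matches are descriptions of the letters, and no binding was measured here.

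Other genes of the family and its partners were taken from lists. Of 8 other HMG-box genes, 3 had an NKT-specific interval (11.5% of all genes), 2 a CD4SP-specific one (8.36%), 2 an ILCP-specific one (13.8%) and 1 a CLP-specific one (16.4%). *Sox5* had all 4 kinds, with 4 in NKT and 3 in CD4SP, and *Tcf7l1*, the TCF relative that acts mainly as a repressor, had 2 in NKT. *Sox11* had no peak in any library. Of 20 cofactors and regulators of TCF and LEF, 8 had an NKT-specific interval, 2 a CD4SP-specific one, 4 an ILCP-specific one and 5 a CLP-specific one, to be read against the same shares of all genes. Without CLP replicate 1 a CLP-specific interval was present at 4 of the 8 and 10 of the 20, against 44.8%. Among the 8 cofactors and regulators with an NKT-specific interval were *Bcl9l*, *Ctnnbip1* and *Axin2*. *Ctnnb1*, which encodes β-catenin, had 1 NKT-specific and 1 CD4SP-specific interval, and *Bcl9* had the most CLP-specific ones of these 20 genes, 3. The median number of specific intervals of each kind was 0 in both lists. More peaks in every NKT than in any CD4SP library were found at 1 of the 8 and 3 of the 20, against 9.47% of genes with a thymic peak, and the opposite at 0 of either list, against 6.6%.

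The genes whose peak numbers, per 10,000 peaks of the library, followed those of the 5 most closely over the 9 libraries were *Zbtb7b* (Pearson r = 0.992), *Padi3* (0.984) and *Tshz2* (0.98) for *Tcf7*, and *Slc23a4* (0.994), *U90926* (0.986) and *Gm47955* (0.981) for *Lef1*. For *Tox* they were *Lrrc3b* (0.995), *Arhgap29* (0.991) and *Cflar* (0.99), for *Tox2* *Fam3b* (0.959), *Carmil1* (0.932) and *Mthfd2l* (0.926), and for *Sox4* *Tnik* (0.982), *Pros1* (0.946) and *Nxpe3* (0.946). *Zbtb7b*, which encodes the CD4-lineage factor ThPOK, had 6 and 9 peaks in CD4SP, 4 and 6 in NKT, 1 to 3 in CLP and 2 in each ILCP library. The 9 points share the split between tissues and the number of peaks called per library, and some 12478 genes were compared, so the values are descriptions. The order depends on the measure, since by Spearman's rho 4 of the 15 were among the 20 most similar genes (*Tshz2*, *Fam3b*, *Carmil1* and *Pros1*).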

How the data were processed

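ATAC-seq of 9 sorted mouse samples was used. The authors aligned 50 bp reads to mm10 with bowtie (2 mismatches) and called MACS peaks in each library, without pooling. The labels also name Picard and HOMER. MACS settings, duplicate removal and read shifting are not given in the sources used here. The deposited lists hold peak positions and a peak caller score (unit: score, lowest 120 in every library), with no counts. The methods give 30000000 to 50000000 reads, without the number for each library, so no counting interval was given. The chromatin immunoprecipitation samples were not analysed here.

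Starts were converted to 1-based positions, and peaks merged at 1 bp overlap, in Python 3.11.15 with numpy 2.4.6, pandas 2.3.3, scipy 1.17.1 and statsmodels 0.14.6. Genes came from GENCODE M21, starts and promoters from RefSeq (4 of the 5 genes matched), and sequence from GRCm38.p6 with pysam 0.24.0. Peak numbers were compared by two-sided exact permutation tests within a tissue. Score ranks were fitted with limma 3.58.1 in R 4.3.3, adjusted by Benjamini-Hochberg over all intervals tested, in a fit per tissue. Merging, tests and rank fits were tested on simulated data. P-values measure the spread between these libraries.

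The 5 genes and all lists were chosen with earlier results of these data known. Intervals were named when over a start, specific, called in the rank fit or highest in a window, and others where they share those libraries. At most 3 sequences per gene, from specific or start intervals with the highest mean place, could be shown, and 5 are. Those of the other eligible intervals are not reported here. Similar genes were the 3 with the highest Pearson r among genes with at least 3 peaks in 1 library.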

Additional observations from a re-analysis of the deposited data

How the results depend on the processing

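The thymic differences at *Tcf7*, *Lef1* and *Tox* kept their direction in every alternative tried but shrank with equal numbers of peaks (from -3.5 to -1, -6 to -3 and -4.5 to -1.5) and with the higher-scoring part (to -0.5, -3 and -1.5), while that at *Tox2* was 0 with equal numbers of peaks and with the higher-scoring part of each list (peaks above the library's median score). Those between ILCP and CLP at *Tcf7*, *Lef1* and *Tox* changed direction in some. At *Tcf7* the difference turned to 0.333 peaks more in ILCP with windows of 5 kb, without extension and with peak midpoints, to 0.5 with equal numbers of peaks and with the higher-scoring part, to 0.0573 per 10,000 peaks and to 110.333 bp covered. At *Lef1* it turned to 0.167 with windows of 5 kb and without extension, 0.333 with the higher-scoring part, 0.309 per 10,000 peaks and 0.5 with the replicate block, and ranged from -1 to 0.5 with 1 library left out. At *Tox* it turned to 1 with equal numbers and 0.833 with the higher-scoring part. By base pairs *Sox4* turned to -916.5 in the thymus, -2001.17 in marrow and -2917.67 summed. Per 10,000 peaks the sum at *Tox2* was 1.34 (exact permutation p = 0.0167), and without extension that at *Tox* was -7.17 (p = 0.0333). The causes were not tested.

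NKT-specific intervals numbered 0, CD4SP-specific 3 and CLP-specific 1 both with equal numbers of peaks and with the higher-scoring part. Counting intervals open in any library gave 17 for CD4SP and 12 for CLP, a cover of 50% gave 1 for ILCP, and CLP open in 2 of 3 libraries gave 9. With 1 library left out CD4SP ranged from 8 to 14 and CLP from 2 to 9.

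In the rank fit over all 9 libraries, 39 intervals were higher and 6 lower in NKT than in CD4SP. Between ILCP and CLP the calls higher and lower in ILCP were 29 and 210 by place among all peaks (0 in the 5 windows), 3846 and 3340 with uncalled peaks at rank 0 (4 in the 5 windows), 561 and 487 in the fit over all 9, and 98 and 103 with the replicate block. With 1 library left out they ranged from 167 to 2370 and from 171 to 2129, and from 0 to 2 in the 5 windows, the highest without CLP replicate 1 and with 0 without ILCP replicate 2 or CLP replicate 2. Small rank differences that were never called changed sign, *Tox2* +0.4 kb in the thymus to -0.0244 (log2 score), -0.532 (without NKT replicate 1) and -1.68 (without CD4SP replicate 2), *Lef1* +46.7 kb in marrow to -0.315 (place among all peaks) and -0.748 (uncalled at 0), and *Sox4* +2.6 kb to -0.319 (place among all peaks).

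Same-numbered replicates deviated together in the thymus (correlation 0.564, equal for both numbers with 2 against 2) and not in marrow (-0.0318 and -0.0353), and no label pairs them. In the rank fit the replicate block changed no call within the 5 windows, and left *Tox2* +50.5 kb at an adjusted p of 0.0498 (limma). Over all intervals, it lowered the calls higher and lower in ILCP than in CLP from 845 and 792 to 98 and 103.

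The depth of each library is unknown, 2 or 3 libraries per type limit every test, and peaks near the lowest listed score can be missed in a sparser list, as in CLP replicate 1.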
